A study of Mus musculus with 67 samples.

Results

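The collagen chain genes were followed across 4 tissues of 3 inbred mouse strains that differ in blood pressure. Members were all probe sets whose gene symbol in the array's annotation has the form of a collagen alpha chain, Col followed by a number, the letter a and a number. The rule gave 56 of the 38385 probe sets on the array, for 41 genes of the 19147 that could be named. They were sorted into 11 fibrillar chains, 5 basement membrane chains and 25 others. No member probe set was found for Col4a3, Col6a3, Col20a1 or Col21a1, which were not analysed here. Compared were male mice, 12 weeks old, of the hypertensive strain BPH/2J, the normotensive strain BPN/3J and the hypotensive strain BPL/1J. Their stated blood pressures were 142 ± 5 mmHg for BPH, 94 ± 6 mmHg for BPN and 69 ± 1.7 mmHg for BPL, with the kind of error not given. No transgene or agent is named for any group, so each comparison is between whole strains. No batch of collection or hybridisation is given. Aorta, taken from its root down to the left renal artery, was measured on 9 BPH, 5 BPN and 9 BPL arrays, heart and liver on 5 arrays per strain, and kidney on 5 BPH, 5 BPN and 4 BPL arrays. The design text names 5 mice per strain, fewer than the aorta arrays, and which array came from which mouse is not given. The p-values therefore rest on how far arrays of a strain differ, and some of that spread may be technical. Every array was counted as separate. If some aorta arrays repeat a mouse, the aorta p-values are too small and its counts of called genes too high.

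Collagens are trimers of alpha chains wound into a triple helix. Fibrillar chains, chiefly of types I and III, give the wall of the aorta and the interstitium of the heart their tensile strength, and type IV chains form the sheet of every basement membrane. The remaining families coat fibrils, build beaded filaments or short-chain lattices, or span the cell membrane, and all chains are hydroxylated, folded, trimmed and crosslinked before they bear load.

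Each value is the intensity of a probe set, summarised by robust multi-array averaging (RMA), on a log2 scale. A gene is represented by its probe set of highest mean in that tissue. Levels are means ± SD over arrays, and differences are log2 values ± the standard error of the limma fit. A gene was said to rise or fall where its limma p-value, adjusted by the Benjamini-Hochberg method over all probe sets, was below 0.05. No detection calls were given, so a level below the lower quartile of the arrays of its tissue is called dim, and no fold is given for it. All 3 strain means were dim for 6 of the 41 genes in aorta and for 9 in each other tissue, while at least 1 strain mean lay above the array median for 28 aorta, 24 heart, 26 kidney and 23 liver genes. Each tissue carried its own marker, with Myh11 of smooth muscle at 12.78 to 13.09 on the aorta arrays against at most 7.65 elsewhere. In heart, BPN array 2 stood apart for several collagen genes, and the collagen genes called against BPN there are also given without it, whereas marker and pathway counts use all arrays. Over the 12 comparisons of a pair of strains in a tissue, 26 collagen genes passed the test at least once and 15 in none. Col8a1 passed in 7 of them, Col4a4 and Col6a6 in 6 each, Col27a1 in 5 and Col19a1 in 4. The share of all genes passing at least once was not computed, so no excess of collagen genes can be read from these counts.

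**Figure D1:**
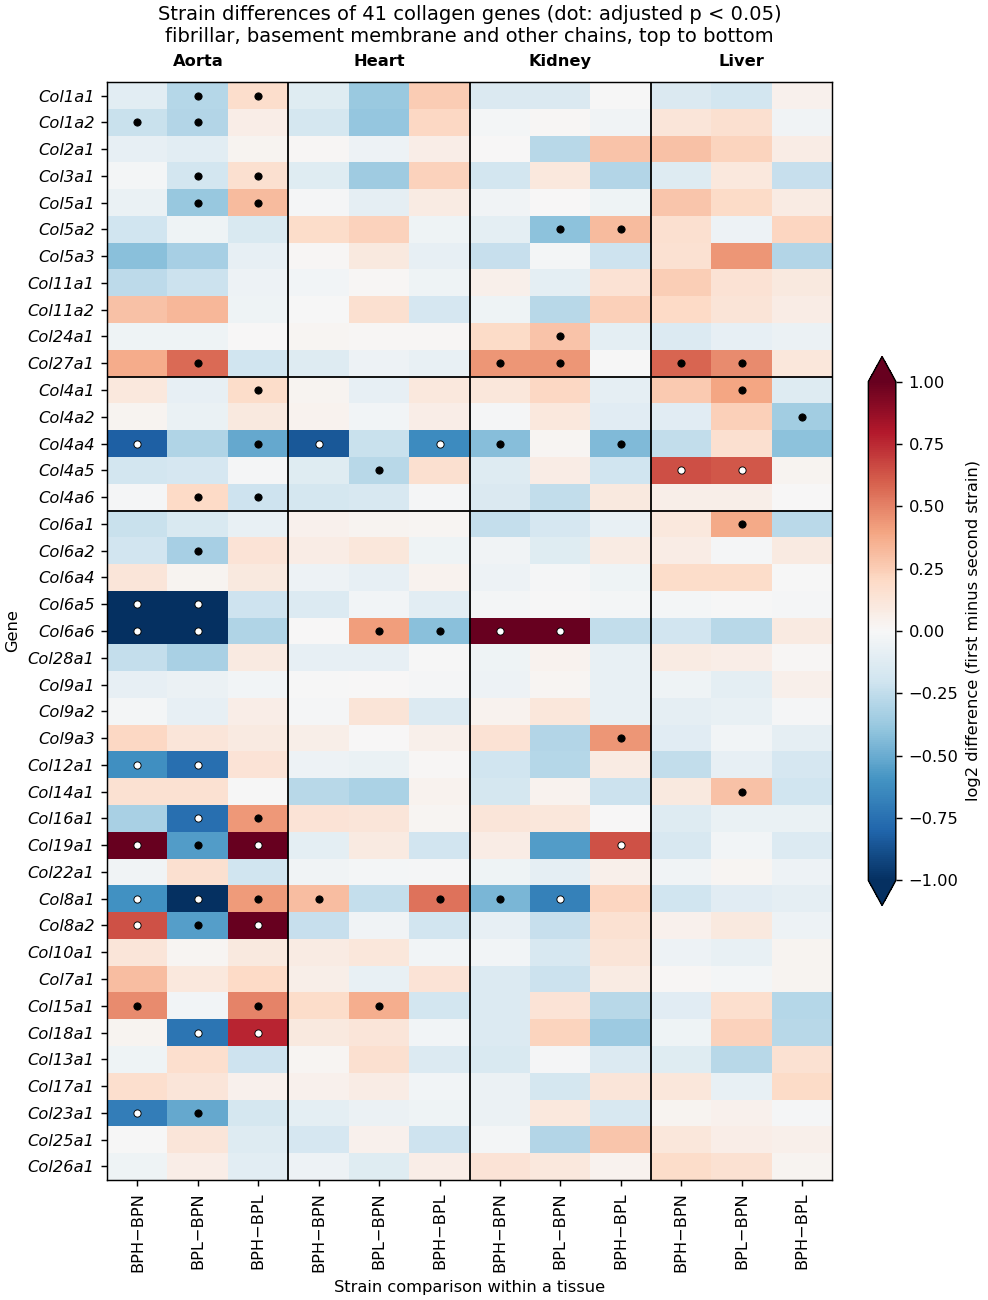
Log2 difference between strains for the 41 collagen genes (rows, by class) in the 12 comparisons (columns, by tissue). Red is higher in the first strain and blue lower, colours stop at the ends of the bar, and a dot marks an adjusted p below 0.05. The aorta columns hold 10, 16 and 12 dots and no column of another tissue holds over 5. Aorta has 23 arrays, against 15 in heart, 14 in kidney and 15 in liver.

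In aorta, collagen transcripts that differed from BPN were mostly lower, in BPH and in BPL alike. Of the 41 genes, 3 rose and 7 fell in BPH against BPN, where 11.7% of all genes passed the test, 5.75% higher and 5.96% lower. In BPL against BPN 2 rose and 14 fell, where 12.9% of all genes passed, 6.55% higher and 6.37% lower. The median difference of the collagen genes was -0.04 in BPH and -0.11 in BPL, beside 0.0043 and 0.0094 for all genes. Both contrasts use the same 5 BPN arrays, so they are not independent. Set directly against BPL, BPH had 10 collagen genes higher and 2 lower, where 13.2% of all genes passed, 6.75% higher and 6.47% lower. In whole tissue, fewer cells of a type and less transcript per cell cannot be told apart.

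Among the fibrillar chains of the aorta, Col1a1, Col1a2, Col3a1 and Col5a1 had their lowest mean in BPL. Col1a1 encodes the main chain of type I collagen. Its level ran from 12.89 through a median of 13.07 to 13.10 on the BPL arrays, from 13.08 through a median of 13.21 to 13.31 on the BPH arrays, and stood at 13.28, 13.34, 13.35, 13.29 and 13.27 on the BPN arrays. The BPL arrays all lay below the BPN arrays, while BPH overlapped both. Col1a1 fell in BPL against BPN (-0.28 ± 0.06, adjusted p = 0.00154, 1.22-fold lower) and was higher in BPH than in BPL (0.18 ± 0.05, adjusted p = 0.0163), while its BPH against BPN difference did not pass (-0.10 ± 0.06, adjusted p = 0.35). Col1a2, the partner chain of type I collagen, was at 12.50, 12.55, 12.56, 12.52 and 12.47 on the BPN arrays. It ranged from 12.17 through a median of 12.31 to 12.41 in BPH and from 12.11 through a median of 12.24 to 12.36 in BPL. Every BPN array was above every array of the other strains. Col1a2 fell in both BPH (-0.22 ± 0.06, adjusted p = 0.0175) and BPL (-0.29 ± 0.06, adjusted p = 0.00158).

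Col3a1, which forms finer fibrils mixed with type I in elastic vessels, stood at 13.05, 13.06, 13.05, 13.02 and 13.04 on the BPN arrays. It ran from 12.96 through a median of 13.01 to 13.07 in BPH and from 12.71 through a median of 12.90 to 12.94 in BPL, so BPL lay below both other strains without overlap. Col3a1 fell in BPL against BPN (-0.18 ± 0.06, adjusted p = 0.0324), and its second probe set gave a difference of -0.54 ± 0.08, also past the test. Col5a1, a chain of the type V collagen that starts fibrils, ran from 9.14 through a median of 9.37 to 9.65 in BPL, against 9.75, 9.77, 9.87, 9.81 and 9.79 in BPN. It fell in BPL (-0.38 ± 0.10, adjusted p = 0.00938) without overlap, and its mean in BPH was 9.74 ± 0.18. Col27a1, a fibrillar chain known from developing cartilage, went the other way. It rose in BPL from 6.55 ± 0.27 to 7.12 ± 0.29 (1.48-fold, log2 0.57 ± 0.16, adjusted p = 0.0222), with overlapping arrays. In all, 0 of the 11 fibrillar chains rose and 1 fell in BPH, and 1 rose and 4 fell in BPL. Col5a2, the partner of Col5a1, did not pass on its brightest probe set in BPH (-0.20 ± 0.08, adjusted p = 0.118) or BPL (-0.05 ± 0.08, adjusted p = 0.815). Another of its probe sets was called lower in BPH (-0.55), and with the mean of its probe sets the BPH difference passed (-0.34, adjusted p = 0.00722).

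The type I and III differences are small, and some calls depended on single arrays or on the fit. The BPH call of Col1a2 was lost without BPN array 13 (adjusted p = 0.0535). The BPL call of Col3a1 was lost without BPL array 28 or without any 1 of the 5 BPN arrays, with differences of -0.19 to -0.16 over all omissions and an adjusted p of up to 0.0709, and its BPH against BPL call without BPL array 28 (adjusted p = 0.0552). The BPL call of Col27a1 was lost without BPN array 11, 12 or 13 (0.50 to 0.67, adjusted p up to 0.0792). In a joint fit of all 12 groups, Col1a2 in BPH (adjusted p = 0.0996), Col1a1 in BPL (adjusted p = 0.0501) and Col3a1 in BPL (adjusted p = 0.182) no longer passed, nor did the differences between BPH and BPL of Col1a1 (adjusted p = 0.159) and Col3a1 (adjusted p = 0.158).

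**Figure D2:**
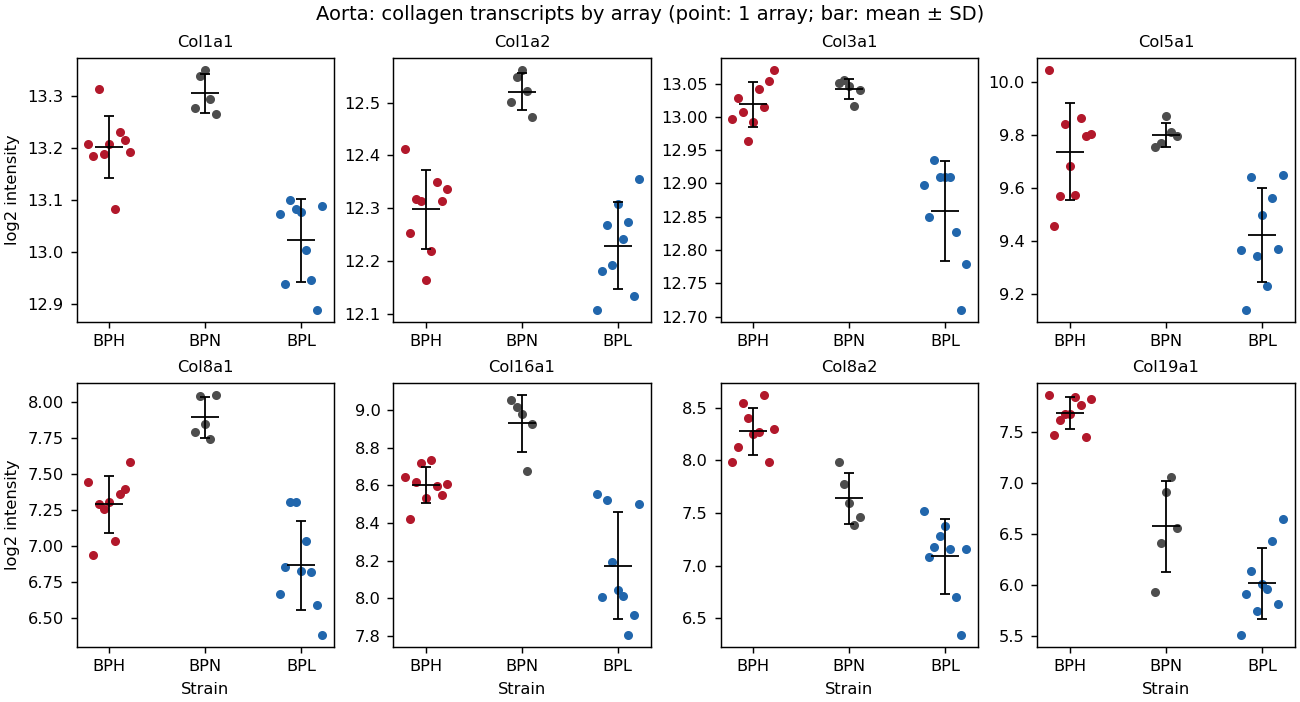
Log2 intensity of 8 collagen genes on each aorta array (points) of BPH, BPN and BPL, with mean ± SD. Col1a1, Col1a2, Col3a1, Col5a1, Col8a1 and Col16a1 have lower means in BPL than in BPN, and the means of Col8a2 and Col19a1 step down from BPH through BPN to BPL.

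In the basement membrane class, Col4a4 separated BPH from BPN in aorta. Col4a4 joins Col4a3 and Col4a5 in the type IV network of the kidney glomerulus and a few other membranes. Its level was 9.99, 10.18, 10.14, 9.94 and 9.75 on the BPN arrays, from 8.89 through a median of 9.21 to 9.56 in BPH and from 9.48 through a median of 9.67 to 9.98 in BPL. All 9 BPH arrays were below all BPN arrays, and BPL lay between with overlap on both sides. Col4a4 fell in BPH against BPN (1.76-fold lower, log2 -0.81 ± 0.10, adjusted p = 3.24e-06) and was lower in BPH than in BPL (-0.51 ± 0.09, adjusted p = 0.000144). Its BPL against BPN difference did not pass (-0.30 ± 0.10, adjusted p = 0.0677), but passed under 5 of the other settings tried. The ubiquitous chains Col4a1 (0.10 ± 0.05, adjusted p = 0.289) and Col4a2 (0.03 ± 0.07, adjusted p = 0.879) did not pass in BPH against BPN. The second probe set of Col4a1 did rise there (0.24). Col4a1 also passed with the mean of its probe sets (0.17, adjusted p = 0.0196) and with a pseudocount of 16 (0.10, adjusted p = 0.0244). Col4a1 was higher in BPH than in BPL (12.80 ± 0.04 against 12.61 ± 0.05, log2 0.18 ± 0.05, adjusted p = 0.00733), without overlap. Col4a6, a chain of smooth muscle basement membranes, rose in BPL (0.20 ± 0.06, adjusted p = 0.0366). This call did not survive the omission of BPL array 23, 24, 26, 27 or 29 or of BPN array 11, 12, 13 or 15 (adjusted p up to 0.108), nor the joint fit (adjusted p = 0.139).

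Col4a4 recurs in heart and kidney, so its promoter window is shown, from 250 bases before to 50 after the start of the gene, as RefSeq gives it for GRCm38.p6. Of the 41 members, 33 have such a window. Col4a4 lies on the minus strand and its window at chr1:82586800-82587099, where Col4a3 and Col4a4 start head to head. A search on both strands for the GC box GGGCGG, for CCAAT and for TATAAA found 0 of each in this window, so it is printed without capitals.
Col4a4: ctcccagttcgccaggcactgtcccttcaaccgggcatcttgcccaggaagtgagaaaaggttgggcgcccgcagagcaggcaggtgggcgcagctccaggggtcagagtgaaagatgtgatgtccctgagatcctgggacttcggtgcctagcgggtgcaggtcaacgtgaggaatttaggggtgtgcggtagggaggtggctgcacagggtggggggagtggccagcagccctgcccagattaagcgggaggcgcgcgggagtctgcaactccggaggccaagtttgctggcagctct

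The largest decreases in aorta were those of Col6a6 and Col6a5, long chains that take the place of Col6a3 in type VI collagen, the beaded filament around cells. Col6a6 stood at 5.85, 6.14, 6.31, 5.46 and 5.97 on the BPN arrays, from 3.30 through a median of 3.76 to 4.08 in BPH and from 3.82 through a median of 4.01 to 4.28 in BPL. Every BPN array was above every other array. Col6a6 fell in BPH (4.65-fold lower, log2 -2.22 ± 0.13, adjusted p = 1.31e-12) and in BPL (3.77-fold lower, log2 -1.91 ± 0.13, adjusted p = 2.29e-11). Its second probe set, of lower mean level, did not pass in either contrast (-0.19 ± 0.11, adjusted p = 0.378 in BPH and -0.15 ± 0.11, adjusted p = 0.536 in BPL). Col6a5, with 1 probe set, was at 2.99, 3.87, 4.68, 4.31 and 3.32 in BPN, from 2.07 through a median of 2.30 to 2.71 in BPH and from 2.22 through a median of 2.58 to 2.82 in BPL. It too was above all other arrays in BPN, but its means in BPH and BPL were dim, so the differences of -1.52 ± 0.19, adjusted p = 2.57e-06 in BPH and -1.31 ± 0.19, adjusted p = 2.08e-05 in BPL carry no fold. Among the main type VI chains, Col6a1 did not pass in either contrast (-0.22 ± 0.08, adjusted p = 0.0934 in BPH and -0.15 ± 0.08, adjusted p = 0.293 in BPL). Its BPH difference passed with the pseudocount of 16 (adjusted p = 0.0462) and the filter at the median level (adjusted p = 0.0444). Col6a2, the constant partner of Col6a1, fell in BPL from 10.86 ± 0.17 to 10.52 ± 0.13 (-0.33 ± 0.08, adjusted p = 0.00705), with overlap.

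Col6a6 and Col6a5 neighbour each other on chromosome 9 and changed together in aorta, so their RefSeq promoter windows on the minus strand of GRCm38.p6 are shown, that of Col6a5 at chr9:105960594-105960893 and that of Col6a6 at chr9:105828036-105828335. Capitals mark the GC box GGGCGG, or CCGCCC where it lies on the other strand. The search found 1 GC box in the Col6a5 window and 2 in the Col6a6 window, and 0 matches to CCAAT or TATAAA in either. The GC box was in 35.7% of the 32851 windows of all genes and in 23 of the 36 windows of collagen genes (63.9%), CCAAT in 37.4% and in 13 of 36, and TATAAA in 13.6% and in 5 of 36. In these windows no GC box overlaps another motif, and a match describes the sequence only.
Col6a5: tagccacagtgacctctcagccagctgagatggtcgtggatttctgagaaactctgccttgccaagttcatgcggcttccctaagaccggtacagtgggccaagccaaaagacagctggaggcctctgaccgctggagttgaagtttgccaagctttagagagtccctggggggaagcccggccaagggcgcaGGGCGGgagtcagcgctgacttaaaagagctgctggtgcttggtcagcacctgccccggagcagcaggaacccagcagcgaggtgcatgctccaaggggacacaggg
Col6a6: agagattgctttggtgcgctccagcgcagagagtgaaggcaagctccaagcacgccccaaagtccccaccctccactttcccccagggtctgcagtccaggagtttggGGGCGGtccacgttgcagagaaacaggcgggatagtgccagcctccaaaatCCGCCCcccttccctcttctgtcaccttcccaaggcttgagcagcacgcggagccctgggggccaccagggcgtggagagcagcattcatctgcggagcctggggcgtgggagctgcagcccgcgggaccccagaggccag

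The fibril-associated chains of the aorta moved in different directions. Col16a1, which links fibrils to their surroundings, stood at 9.05, 9.01, 8.98, 8.67 and 8.92 in BPN and from 7.81 through a median of 8.04 to 8.55 in BPL, without overlap. It fell in BPL (1.69-fold lower, log2 -0.76 ± 0.11, adjusted p = 2.88e-05), and its difference in BPH was -0.33 ± 0.11, adjusted p = 0.0747. The BPH difference of Col16a1 passed with the filter at the median level (adjusted p = 0.0415) and in the joint fit (adjusted p = 0.0103). Col12a1, a fibril-coating chain of loaded connective tissue, fell in BPH (-0.61 ± 0.17, adjusted p = 0.0193) and BPL (-0.75 ± 0.17, adjusted p = 0.0033), with overlapping arrays, and without BPN array 11, its highest, the BPH call was lost (adjusted p = 0.0899). Col14a1, its close relative, did not pass in either contrast (0.15 in BPH and 0.15 in BPL). Col19a1, a rare chain found near basement membranes and in muscle, ran from 7.45 through a median of 7.68 to 7.86 in BPH and from 5.51 through a median of 5.96 to 6.65 in BPL, against 5.92, 6.41, 6.91, 7.06 and 6.56 in BPN. The BPH arrays were all above the arrays of both other strains. Col19a1 rose in BPH against BPN (2.16-fold, log2 1.11 ± 0.17, adjusted p = 2.97e-05), and BPH exceeded BPL 3.18-fold (log2 1.67 ± 0.14, adjusted p = 1.62e-09). Its decrease in BPL against BPN (-0.56 ± 0.17, adjusted p = 0.029) overlapped and was lost without BPL array 21, 24 or 28 or BPN array 13, 14 or 15 (-0.72 to -0.44, adjusted p up to 0.126). A second probe set of Col19a1 gave 0.11 ± 0.19, adjusted p = 0.839 in BPH and -0.63 ± 0.19, adjusted p = 0.0366 in BPL.

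The type VIII chains, which form a lattice under endothelium and around smooth muscle, parted in BPH. Col8a1 stood at 7.79, 8.04, 7.85, 7.74 and 8.05 in BPN, from 6.94 through a median of 7.30 to 7.58 in BPH and from 6.39 through a median of 6.83 to 7.31 in BPL. All BPN arrays were above all others. Col8a1 fell in BPH (1.52-fold lower, log2 -0.60 ± 0.13, adjusted p = 0.00272) and in BPL (2.03-fold lower, log2 -1.02 ± 0.13, adjusted p = 3.11e-06). Its second probe set fell in BPL (-0.94 ± 0.17, adjusted p = 0.000232) but not in BPH (0.10 ± 0.17, adjusted p = 0.818), and with the mean of both probe sets the BPH difference was -0.25 (adjusted p = 0.242). Col8a2 stood at 7.98, 7.77, 7.59, 7.38 and 7.46 in BPN, from 7.98 through a median of 8.27 to 8.62 in BPH and from 6.34 through a median of 7.16 to 7.52 in BPL. No BPH array lay below a BPN array and no BPL array reached the BPH range. Col8a2 rose in BPH (1.56-fold, log2 0.64 ± 0.15, adjusted p = 0.00679), and BPH exceeded BPL 2.28-fold (log2 1.19 ± 0.13, adjusted p = 1.9e-07). The decrease of Col8a2 in BPL (-0.55 ± 0.15, adjusted p = 0.0199) was lost without BPN array 11 or 12 (adjusted p up to 0.0792). Col8a2 and Col19a1 were the collagen genes called as graded in aorta, with BPH above BPN and BPL below it.

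Of the chains whose end fragments restrain vessel growth, Col15a1 and Col18a1, each was higher in BPH than in BPL. Col15a1 was at 9.67 ± 0.16 in BPH, 9.20 ± 0.29 in BPN and 9.18 ± 0.26 in BPL. It rose in BPH against BPN (0.47 ± 0.13, adjusted p = 0.0159), with overlap and a call lost without BPN array 11, 13 or 15 (0.40 to 0.55, adjusted p up to 0.0669), and exceeded BPL (0.50 ± 0.11, adjusted p = 0.0019). Col18a1 was at 7.26 ± 0.36 in BPH, 7.23 ± 0.38 in BPN and 6.50 ± 0.31 in BPL. It fell in BPL against BPN (-0.73 ± 0.18, adjusted p = 0.0082), was higher in BPH than in BPL (0.76 ± 0.15, adjusted p = 0.00101) and had a BPH against BPN difference of 0.03 ± 0.18, adjusted p = 0.96. The second probe set of Col18a1 did not pass, at -0.57 for BPL against BPN and 0.37 for BPH against BPL. Col23a1, a chain that spans the cell membrane, stood at 7.07, 6.93, 7.46, 6.73 and 6.76 in BPN and from 6.15 through a median of 6.27 to 6.58 in BPH, without overlap. It fell in BPH (1.62-fold lower, log2 -0.69 ± 0.13, adjusted p = 0.000657), and its BPL decrease (-0.51 ± 0.13, adjusted p = 0.01) was lost without BPN array 13 (adjusted p = 0.0598).

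Among the genes that make, trim, crosslink and remove collagen, more fell than rose in the aorta against BPN, and most did not pass. Of the 50 measured, 1 rose and 17 fell in BPH (median -0.14), and 2 rose and 14 fell in BPL (median -0.21), beside the shares of all genes given above. Chain modification and folding had 0 higher and 5 lower of 17 in BPH and 0 and 6 in BPL. The largest falls there were those of the prolyl hydroxylases P4ha2 in BPH (-0.53 ± 0.11) and P4ha1 in BPL (-0.59 ± 0.15). Of the 6 crosslinking genes, 4 fell in BPH and 2 in BPL, led by Pxdn, a peroxidase that crosslinks type IV collagen, in BPH (-0.67 ± 0.13) and by Loxl4, of the lysyl oxidase family, in BPL (-0.58 ± 0.11). Of the 8 genes of propeptide removal, 3 fell in BPH and 1 in BPL, led by Adamts3, which trims procollagen, in BPH (-0.57 ± 0.11) and the procollagen enhancer Pcolce2 in BPL (-0.48 ± 0.07). Among 12 genes of breakdown and its inhibitors, 1 rose and 4 fell in BPH and 2 rose and 4 fell in BPL. In BPH the inhibitor of metalloproteinases Timp4 rose the most (1.51 ± 0.14) and the gelatinase Mmp2 fell the most (-1.02 ± 0.12). In BPL the gelatinase Mmp9 rose the most (1.19 ± 0.12) and the collagenase Mmp13, dim in BPL, fell the most (-0.84 ± 0.26). Of 7 collagen receptors, Lair1 of immune cells fell in BPH (-0.49 ± 0.14) and BPL (-0.53 ± 0.14).

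Marker lists of several cell types also differed between the aortas of the strains. Of 10 fibroblast markers, 0 rose and 2 fell in BPH and 1 rose and 3 fell in BPL, and their summed intensity was 25996 to 30977 on the BPH arrays, 28051 to 33026 on the BPN arrays and 25850 to 31156 on the BPL arrays. Of 8 smooth muscle markers, none passed in BPH and 3 fell in BPL, with sums of 39097 to 44196 in BPH, 39600 to 44896 in BPN and 31203 to 37594 in BPL, so the BPL range lay below the others. Of 11 cartilage markers, 1 rose and 4 fell in BPH and 0 rose and 5 fell in BPL, with sums of 5657 to 6854 in BPH, 8492 to 10231 in BPN and 6112 to 7337 in BPL. Chad, a cartilage matrix protein, was lower than in BPN by the most of these (-5.61 ± 0.15 in BPH and -4.65 ± 0.15 in BPL), whereas Matn1, Matn3 and Epyc, and the cartilage collagens Col2a1, Col9a1 and Col10a1, were dim in all 3 strains. Other cartilage collagens, Col9a2, Col9a3 and Col11a2, were not dim and did not pass against BPN. Col11a1, a fibrillar chain of cartilage, did not pass on its representative probe set, which was itself dim in BPH (-0.26 ± 0.15 in BPH and -0.21 ± 0.15 in BPL). Its other probe sets, dim in BPH and BPL, fell in BPH (-0.68 ± 0.13 and -0.81 ± 0.20) and BPL (-0.66 ± 0.13 and -1.20 ± 0.20). Of 4 cardiac valve markers, 2 fell in each contrast, Cthrc1 (-2.45 and -2.09) and Wif1 (-2.03 and -2.44), with sums of 7416 to 8318 in BPH, 7365 to 8290 in BPN and 6689 to 7416 in BPL. BPH and BPN thus overlapped in the sum, while the mean log2 level of the list was 7.93 to 8.48 in BPH, 9.30 to 9.36 in BPN and 8.04 to 8.32 in BPL. Of 6 cardiomyocyte markers, 2 rose and 0 fell in each contrast, Tnnt2 in BPH (1.84), Actc1 in BPL (3.50) and Ryr2 in both (0.87 and 0.57). Their sums were 1231 to 5074 in BPH, with a median of 1563, 729 to 1164 in BPN and 1569 to 2548 in BPL. In the sum both strains thus lay above BPN. The mean log2 level of the list did not separate them, at 6.33 to 9.20 in BPH, 6.56 to 7.19 in BPN and 7.18 to 7.74 in BPL. The part of these cell types in the collagen differences was not tested.

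In heart, few collagen genes differed. Against BPN, 1 rose and 1 fell in BPH, where 8.47% of all genes passed, 4.33% higher and 4.14% lower. In BPL 2 rose and 1 fell, where 11.3% passed, 4.78% higher and 6.52% lower. Against BPL, 1 was higher and 2 were lower in BPH, where 10.4% passed, 5.9% higher and 4.54% lower. The median difference was -0.01 in BPH and -0.03 in BPL.

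Col4a4 fell in the BPH heart. It was at 6.92, 6.88, 6.78, 6.90 and 6.47 on the BPH arrays, 7.53, 7.49, 7.74, 7.78 and 7.64 on the BPN arrays and 7.33, 7.41, 7.39, 7.39 and 7.56 on the BPL arrays. Every BPH array was below every other array, and it fell 1.8-fold against BPN (log2 -0.85 ± 0.09, adjusted p = 2.17e-06, and -0.89 with adjusted p = 4.19e-06 without BPN array 2) and 1.54-fold against BPL (log2 -0.63 ± 0.09, adjusted p = 6.29e-05). Col8a1 was higher in the BPH heart, where its brightest probe set is the one that did not pass in the BPH aorta (0.10 ± 0.17), and its BPH change was not called different between aorta and heart (-0.21 ± 0.18, adjusted p = 0.628). Its arrays read 8.34, 8.58, 8.62, 8.43 and 8.30 in BPH, 8.18, 8.07, 8.07, 8.22 and 8.18 in BPN and 7.73, 8.05, 8.02, 7.79 and 7.93 in BPL. The strains did not overlap between BPH and either other strain, and BPH was 1.24-fold above BPN (log2 0.31 ± 0.08, adjusted p = 0.0184) and 1.46-fold above BPL (log2 0.55 ± 0.08, adjusted p = 9.2e-05). The call against BPN was lost without BPH array 2 or 3 or BPN array 2 (0.27 to 0.35, adjusted p up to 0.0573), in the joint fit of 12 groups (adjusted p = 0.327) and on the other probe set of the gene (0.25 ± 0.11, adjusted p = 0.229). Without BPN array 2 the difference was 0.29 (adjusted p = 0.0513). In BPL against BPN, Col8a1 was at -0.24 and did not pass in the main fit, though every BPL array lay below every BPN array. With all arrays it passed there with the pseudocount of 16 (adjusted p = 0.0473) and the filter at the median level (adjusted p = 0.0329). The mean of its probe sets also passed (-0.36, adjusted p = 0.00856), and its other probe set was called lower (-0.49). Col6a6 rose in the BPL heart, where its arrays read 5.13, 4.95, 4.92, 5.02 and 4.90 against 4.37, 4.36, 4.44, 4.86 and 4.80 in BPN. All BPL arrays were above all BPN arrays (1.34-fold, log2 0.42 ± 0.10, adjusted p = 0.0131). Without BPN array 2, which stood apart as described next, the difference was 0.37 (adjusted p = 0.0411). Col15a1, which sits beside capillaries and muscle fibres, rose in the BPL heart (0.36 ± 0.09, adjusted p = 0.0107, and 0.31 with adjusted p = 0.0336 without BPN array 2), but not in the joint fit (adjusted p = 0.0931). Col4a5 fell there (-0.28 ± 0.08, adjusted p = 0.035), a call lost without BPL array 1, 2 or 4 or BPN array 1, 2 or 5 (adjusted p up to 0.0963, and -0.25 with adjusted p = 0.0939 without BPN array 2).

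The main interstitial chains of the heart did not pass in either contrast, and 1 BPN array stood apart. Col3a1 was at 11.83, 12.49, 11.79, 11.98 and 12.07 on the BPN arrays, 11.85, 11.92, 11.76, 11.89 and 12.12 on the BPH arrays and 11.68, 11.47, 11.61, 11.77 and 11.84 on the BPL arrays. BPN array 2 was the highest for Col3a1, for Col1a1 (9.84 against 8.85 to 9.26 on the other BPN arrays) and for Col1a2 (9.10 against at most 8.22). The BPL against BPN differences were -0.37 ± 0.14, adjusted p = 0.121 for Col1a1, -0.39 ± 0.15, adjusted p = 0.146 for Col1a2 and -0.36 ± 0.11, adjusted p = 0.0562 for Col3a1, and without BPN array 2 they were -0.22 (adjusted p = 0.243), -0.19 (adjusted p = 0.193) and -0.24 (adjusted p = 0.121). With all arrays Col3a1 passed in BPL under the filter at the median level (adjusted p = 0.0335), with centring (adjusted p = 0.0408) and in the joint fit (adjusted p = 0.0339), where Col1a2 passed too (adjusted p = 0.0205). In BPH the differences were -0.12, -0.18 and -0.12, and without that array 0.04, 0.02 and -0.0094. Of 10 fibroblast markers, 2 fell in the BPH heart and 5 in the BPL heart, with sums of 16369 to 17184 in BPH, 17898 to 19851 in BPN and 14952 to 17064 in BPL. Of 7 macrophage markers, 4 fell in BPH and 6 in BPL, with sums of 2124 to 2405 in BPH, 2656 to 3941 in BPN, where array 2 was the highest, and 2097 to 2226 in BPL. Their part in the collagen levels was not tested.

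Among the 50 genes of the collagen pathway, 3 rose and 2 fell in the BPH heart and 2 rose and 9 fell in the BPL heart. P3h4, which helps hydroxylate collagen lysines, fell in both (-0.45 ± 0.05 and -0.55 ± 0.05). Timp4 rose in BPH (0.97 ± 0.11), and Adamts3 fell in BPL (-0.71 ± 0.07). No crosslinking gene passed in either contrast against BPN.

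**Figure D3:**
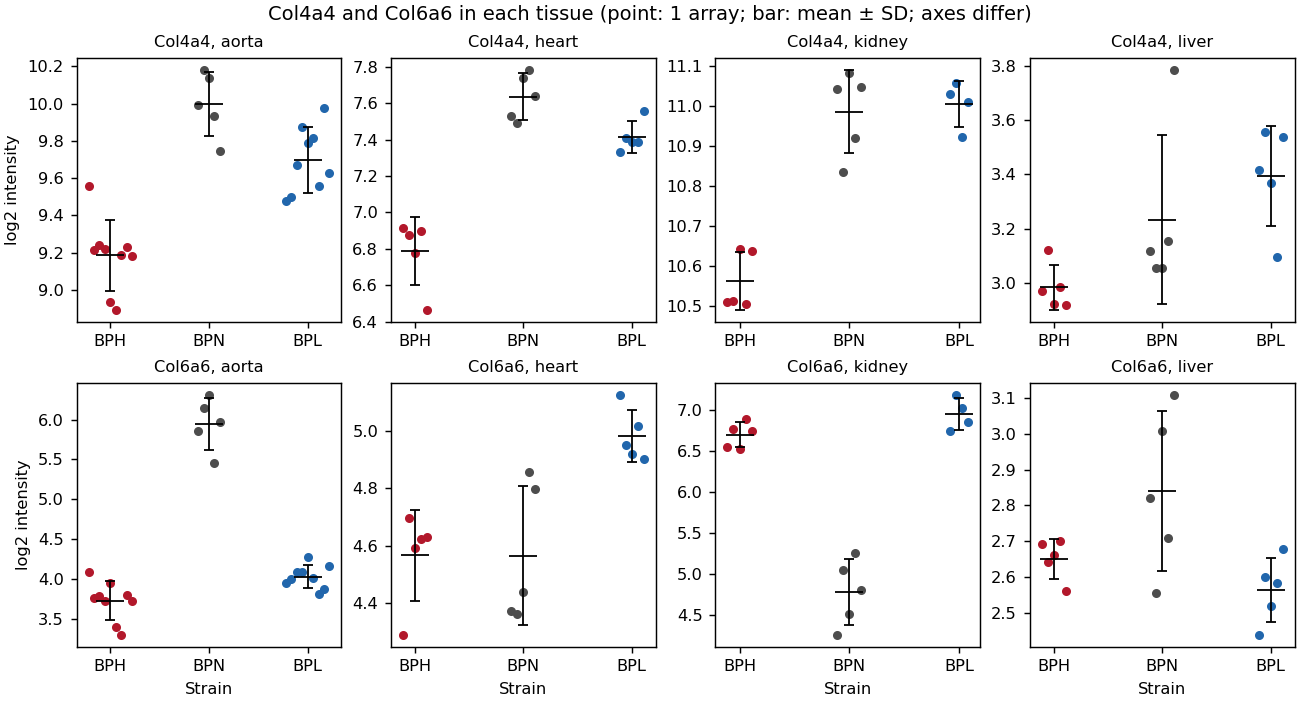
Log2 intensity of Col4a4 (upper panels) and Col6a6 (lower panels) on each array of the 4 tissues, with mean ± SD per strain. The mean of Col4a4 is lowest in BPH in all 4 tissues, though in liver the difference from BPN did not pass. Col6a6 is highest in BPN in aorta but lowest in BPN in kidney. The liver panel of Col6a6 uses the probe set that is brightest in liver.

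In kidney, Col6a6 was higher in both BPH and BPL than in BPN, opposite to the aorta. Of the 41 genes, 2 rose and 2 fell in BPH against BPN, where 8.58% of all genes passed, 4.42% higher and 4.16% lower. In BPL 3 rose and 2 fell, where 7.77% passed, 3.96% higher and 3.81% lower. Between BPH and BPL, 3 were higher and 1 lower in BPH, where 7.88% passed, 3.95% higher and 3.93% lower. Col6a6 was at 4.26, 5.06, 4.51, 5.26 and 4.82 on the BPN arrays, 6.56, 6.78, 6.53, 6.89 and 6.75 on the BPH arrays and 6.74, 7.19, 7.02 and 6.86 on the BPL arrays. Each BPN array was lower than all the others. Col6a6 rose 3.78-fold in BPH (log2 1.92 ± 0.15, adjusted p = 2.81e-07) and 4.5-fold in BPL (log2 2.17 ± 0.16, adjusted p = 1.24e-07). Its second probe set gave 1.57 ± 0.15 in BPH and 2.77 ± 0.16 in BPL, both past the test, and there BPH was also lower than BPL (-1.20 ± 0.16).

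Col8a1 fell in both strains in kidney. It was at 6.42, 6.50, 6.62, 6.72 and 6.56 in BPN, 6.07, 6.14, 6.15, 6.04 and 6.14 in BPH and 5.91, 5.90, 5.85 and 5.89 in BPL. The 3 strains did not overlap, with the fall at 1.37-fold in BPH (log2 -0.46 ± 0.06, adjusted p = 0.000124) and 1.59-fold in BPL (log2 -0.67 ± 0.07, adjusted p = 3.34e-06). Col4a4, a chain of the glomerular filter, was at 10.51, 10.51, 10.64, 10.51 and 10.64 in BPH, 11.04, 10.84, 11.08, 10.92 and 11.05 in BPN and 11.03, 11.06, 10.92 and 11.01 in BPL. All BPH arrays were below all others. It fell 1.34-fold against BPN (log2 -0.42 ± 0.06, adjusted p = 0.000303) and 1.36-fold against BPL (log2 -0.44 ± 0.07, adjusted p = 0.000368). Its partner Col4a5 did not pass (-0.13 in BPH and 0.07 in BPL), nor did Col4a1 (0.12 and 0.21) or Col4a2 (-0.01 and 0.11). The Col4a1 difference in BPL did pass with the pseudocount of 16 (adjusted p = 0.0196) and the filter at the median level (adjusted p = 0.0271). Podocytes help make the membrane of the glomerular filter. Of 5 podocyte markers, 1 rose in BPH, and 1 rose and 2 fell in BPL, with sums of 854 to 1002 in BPH, 747 to 829 in BPN and 812 to 880 in BPL. Of 7 macrophage markers, 0 rose and 3 fell in BPH and 0 passed in BPL, with sums of 572 to 704 in BPH, 723 to 958 in BPN and 745 to 1014 in BPL. The part of these cells in the kidney levels was not tested.

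Col27a1 rose in both BPH (1.36-fold, log2 0.44 ± 0.09, adjusted p = 0.00641) and BPL (1.36-fold, log2 0.44 ± 0.10, adjusted p = 0.0112) kidneys. Its arrays ran from 6.60 to 7.12 in BPN and read 7.34, 7.33, 7.35, 7.24 and 7.16 in BPH and 7.22, 7.46, 7.21 and 7.25 in BPL, so BPN lay below both. Neither passed in the joint fit (adjusted p = 0.0597 in BPH and 0.0936 in BPL). Col5a2 fell in BPL, from 6.49 ± 0.14 to 6.08 ± 0.15 (1.33-fold lower, log2 -0.41 ± 0.09, adjusted p = 0.00834), without overlap, but not in the joint fit (adjusted p = 0.247). The main fibrillar chains did not pass, with Col1a1 at -0.15 in BPH and -0.14 in BPL and Col3a1 at -0.18 and 0.11. Of the remaining calls in kidney, those of Col19a1 (0.64 ± 0.17, adjusted p = 0.0344), Col9a3 (0.44 ± 0.11, adjusted p = 0.0265) and Col5a2 (0.32 ± 0.09, adjusted p = 0.0436) between BPH and BPL and of Col24a1 in BPL (0.29 ± 0.08, adjusted p = 0.0335) each depended on single arrays. That of Col19a1 was lost without BPH array 1, 2 or 4 or BPL array 1, 4 or 5 (adjusted p up to 0.102), and that of Col9a3 without BPH array 1, 2 or 3 or BPL array 1 or 2 (adjusted p up to 0.0982). That of Col5a2 was lost without BPH array 1, 2, 3 or 4, any 1 of the 4 BPL arrays, or BPN array 3, 4 or 5 (adjusted p up to 0.155), and that of Col24a1 without BPL array 1, 2 or 5 or BPN array 2, 3 or 4 (adjusted p up to 0.12). These omissions were tried on the brightest probe set of Col5a2 only. All 3 of its probe sets were called higher in BPH than in BPL, at 0.32 to 1.28. Col9a3, a cartilage chain, and Col24a1, a minor fibrillar chain, were dim. Of 10 fibroblast markers, 0 passed in BPH, and 1 rose and 1 fell in BPL.

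Of the 50 pathway genes, 4 rose and 6 fell in the BPH kidney and 2 rose and 4 fell in the BPL kidney. The largest difference was that of Mep1a, a brush border protease able to trim procollagen, which fell in BPL (-3.66 ± 0.06), and its partner Mep1b rose there (0.80 ± 0.08). The lysyl hydroxylase Plod2 (0.61 ± 0.09) and the oxidase Loxl2 (0.56 ± 0.09) rose in BPH, where the collagen chaperone Serpinh1 fell (-0.42 ± 0.09). Itga1, a subunit of a collagen-binding integrin, fell in both (-0.54 ± 0.08 and -0.55 ± 0.09).

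**Figure D4:**
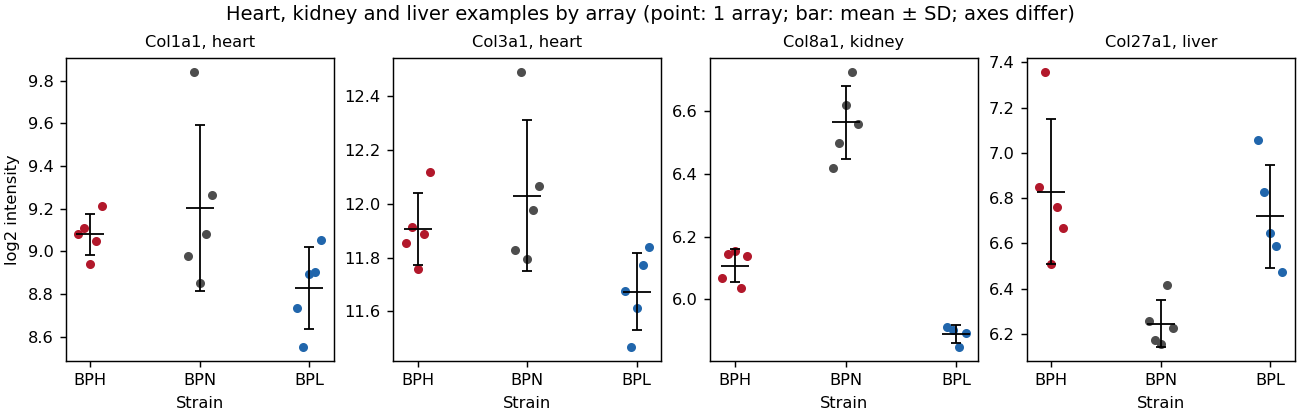
Log2 intensity on each array, with mean ± SD per strain, of Col1a1 and Col3a1 in heart, Col8a1 in kidney and Col27a1 in liver. BPN array 2 is the highest heart point for both Col1a1 and Col3a1, the strains do not overlap for Col8a1, and the BPN arrays are the lowest for Col27a1.

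In liver, every collagen gene that differed from BPN was higher. In BPH 2 rose and 0 fell, where 9.1% of all genes passed, 4.11% higher and 5% lower, and in BPL 5 rose and 0 fell, where 9.41% passed, 4.62% higher and 4.78% lower. Between BPH and BPL, 0 were higher and 1 was lower in BPH, where 7.36% passed, 3.51% higher and 3.85% lower. Col27a1 was at 6.26, 6.17, 6.16, 6.41 and 6.23 on the BPN arrays, 6.85, 7.36, 6.51, 6.76 and 6.67 on the BPH arrays and 7.06, 6.83, 6.65, 6.59 and 6.47 on the BPL arrays. All BPN arrays were below the rest. Col27a1 rose in BPH (1.5-fold, log2 0.58 ± 0.13, adjusted p = 0.00791) and BPL (1.39-fold, log2 0.47 ± 0.13, adjusted p = 0.0307), and the BPL call was lost without BPL array 1 or 2 or BPN array 1, 2, 3 or 5 (0.39 to 0.54, adjusted p up to 0.0918). Col4a5 was at 3.28, 2.99, 2.94, 3.25 and 3.03 in BPN, 3.50, 3.59, 3.52, 3.95 and 4.16 in BPH and 3.53, 3.90, 3.92, 3.66 and 3.58 in BPL. Again every BPN array was the lower, and Col4a5 rose in BPH (1.56-fold, log2 0.64 ± 0.12, adjusted p = 0.00213) and BPL (1.54-fold, log2 0.62 ± 0.12, adjusted p = 0.00277). Its mean lay below the medians of the liver arrays (log2 3.76 to 3.85) in every strain.

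Further increases in the BPL liver were those of Col14a1, a fibril-coating chain, and of the vessel and stroma chains Col6a1 and Col4a1. Col14a1 went from 6.87 ± 0.14 to 7.17 ± 0.06 (0.30 ± 0.07, adjusted p = 0.0145), without overlap. Col6a1 (0.38 ± 0.10, adjusted p = 0.0251) lost its call without BPL array 1 or 3 or BPN array 1 or 3 (adjusted p up to 0.0759), and Col4a1 (0.39 ± 0.12, adjusted p = 0.0449), whose arrays overlapped, without any 1 of the 5 BPH arrays, BPL array 1, 2 or 3, or BPN array 1, 2 or 5 (adjusted p up to 0.124). Col4a2, which pairs with Col4a1, was lower in BPH than in BPL (1.28-fold, log2 -0.35 ± 0.08, adjusted p = 0.00838), a call lost with the mean of its probe sets (-0.17, adjusted p = 0.12). The chains of liver scar, Col1a1 (-0.14 in BPH and -0.18 in BPL), Col1a2 (0.12 and 0.16) and Col3a1 (-0.13 and 0.10), did not pass. Of 8 markers of hepatic stellate cells, the main collagen makers of the liver, 3 rose in BPH, and 1 rose and 1 fell in BPL, with sums of 1486 to 1569 in BPH, 1246 to 1493 in BPN and 1210 to 1380 in BPL. Of 7 macrophage markers, 0 rose and 5 fell in each contrast, with sums of 989 to 1306 in BPH and 1249 to 1319 in BPL, both below the 1474 to 1714 of BPN. Their part in the collagen levels was not tested. In the 50 pathway genes, 2 rose and 4 fell in BPH and 1 rose and 2 fell in BPL, with Itga1 lower in both (-0.57 ± 0.09 and -0.31 ± 0.09).

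Across tissues, Col4a4 fell in BPH against BPN in 3 of 4, and Col27a1 rose in BPL against BPN in 3 of 4. The liver difference of Col4a4 was -0.25 ± 0.12, adjusted p = 0.278, at levels below the array median, and the heart difference of Col27a1 in BPL was -0.05 ± 0.07, adjusted p = 0.73. In liver the BPH against BPL difference of Col4a4 (-0.41, and -0.15 on its other probe set) did not pass in the main fit. It passed in the joint fit (adjusted p = 0.00779), with a replicate block (adjusted p = 0.0444) and with centring (adjusted p = 0.0353). The second probe set of Col4a4 gave -0.74 ± 0.19 in aorta, -0.89 ± 0.17 in heart and -0.49 ± 0.09 in kidney for BPH, all past the test. The strain differences were also compared between tissues directly, in a joint limma fit of all 67 arrays, with the reservation that aorta RNA was amplified by another protocol than that of the other tissues.

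Between aorta and heart, 7 collagen genes had a different BPH against BPN change and 10 a different BPL against BPN change, where 9.19% and 9.95% of all genes passed. Col6a6 differed by -2.22 ± 0.17, adjusted p = 5.28e-16 in BPH and -2.33 ± 0.17, adjusted p = 6.88e-17 in BPL. Col16a1 (-0.88 ± 0.15, adjusted p = 7.64e-06) and Col18a1 (-0.85 ± 0.20, adjusted p = 0.00225), which fell in the BPL aorta, differed too, their heart differences being 0.12 and 0.12. Col14a1 differed between the tissues in BPH (0.43 ± 0.13, adjusted p = 0.0196), with 0.15 in aorta and -0.28 in heart, and in BPL (0.47 ± 0.13, adjusted p = 0.00865), with 0.15 and -0.31, though it passed in neither tissue alone. Col6a5, Col12a1 and Col19a1 also passed between aorta and heart, but were dim in heart in all 3 strains. Col8a2 passed in BPH (0.86), with a heart difference of -0.23, but was dim in the BPH heart. For Col1a1 the differences of differences were 0.02 ± 0.16, adjusted p = 0.971 in BPH and 0.09 ± 0.16, adjusted p = 0.848 in BPL. Between heart and kidney, which share the amplification protocol, Col6a6 (-1.92 ± 0.18, adjusted p = 3.22e-12) and Col8a1 (0.76 ± 0.19, adjusted p = 0.0116) differed in BPH, where 3.15% of all genes passed, and Col6a6 (-1.75 ± 0.19, adjusted p = 2.13e-10) in BPL, where 3.69% passed. For Col4a4 the heart minus kidney difference of its BPH change was -0.43 ± 0.15, adjusted p = 0.164.

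**Figure D5:**
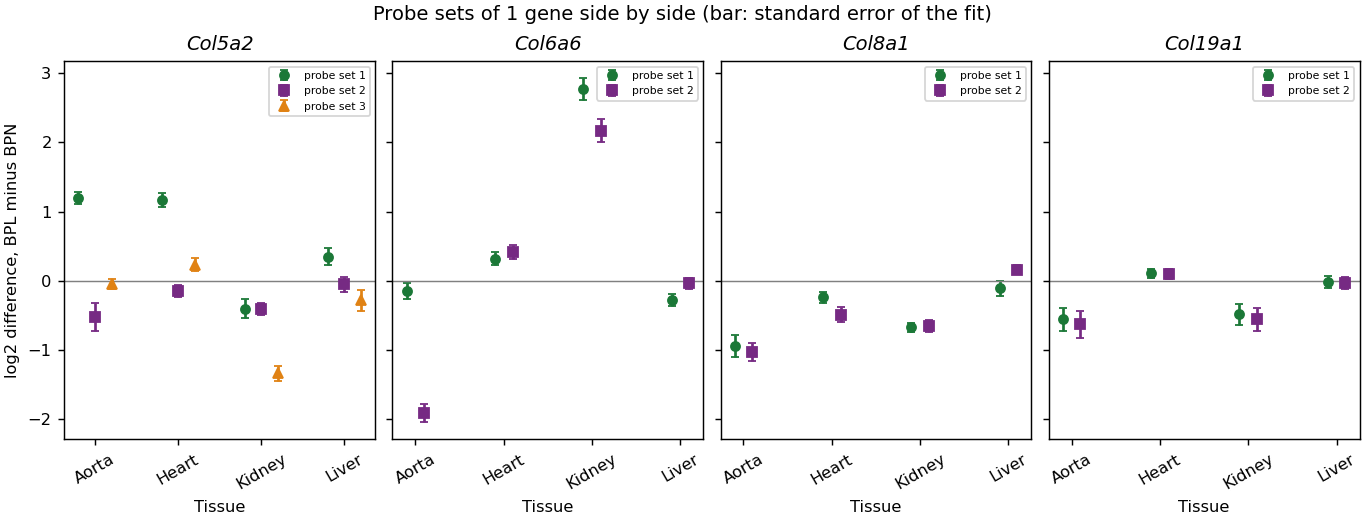
BPL minus BPN log2 difference with its standard error for each probe set of Col5a2, Col6a6, Col8a1 and Col19a1 in the 4 tissues. In aorta 1 probe set of Col5a2 is 1.20 higher in BPL while the brightest is at -0.05, and the probe sets of Col6a6 lie apart in aorta and both above 0 in kidney.

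Of the 41 genes, 13 have over 1 probe set, and these did not always give the same value. Col5a2 has 3 probe sets. In the aorta of BPL the brightest differed from BPN by -0.05 ± 0.08, while the others gave 1.20 ± 0.08 and -0.52 ± 0.20. In the BPL kidney the 3 probe sets were at -0.41 ± 0.09, -0.41 ± 0.14 and -1.34 ± 0.10. In the BPL heart 1 probe set, not the brightest, was called higher (1.17), and the mean of the 3 passed (0.42, adjusted p = 0.0017). That mean passed in the BPH liver too (0.41, adjusted p = 0.0212). Within a comparison, no gene had 1 probe set called higher and another called lower. Which transcripts or exons the probe sets of a gene detect is not given in the sources used here, so sequence differences between the strains under a probe and differences in transcript level cannot be told apart.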

How the data were processed

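Gene expression was measured on 67 single-colour custom Affymetrix mouse arrays, each of 38385 probe sets. The deposited values are linear intensities made by the authors with RMA, which the submitters' processing notes name. The version and the genome build are not given in the sources used here. Per the labels' protocols, aorta RNA was amplified with the NuGEN Ovation kit and the other tissues by reverse transcription and in vitro transcription, so levels were compared within a tissue only. Array medians of the intensity were 25.3 to 26.6 in aorta, 24.6 to 26.3 in heart, 29.8 to 31.5 in kidney and 13.6 to 14.4 in liver. Replicate arrays correlated at 0.986 to 0.997 and no pair was identical.

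Intensities were converted to log2 with a pseudocount of 0 and tested in R 4.3.3 with limma 3.58.1, fitting a mean for every strain in each tissue and no batch term, since no batch was given. P-values were adjusted over all probe sets and called below 0.05. Differences between tissues came from a joint fit of the 12 groups. The annotation gave 24478 probe sets 1 gene symbol and 65 several, and did not list 13842. Figures were drawn with matplotlib 3.10.9 in Python 3.11.15. The number of arrays limits the precision. Alternatives were a pseudocount of 16, a filter at the median level, the mean of a gene's probe sets, centring on array medians, the joint fit, a replicate block and leaving out each array.

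The collagen genes, the pathway list and the marker lists of fibroblast, smooth muscle, cartilage, cardiac valve, cardiomyocyte, macrophage, podocyte and hepatic stellate cells were chosen with earlier results of these data known. The text names, in each tissue, the 4 top increases and decreases called against BPN, graded genes, genes called the same way in at least 3 tissues, a fixed set (Col1a1, Col1a2, Col3a1, Col5a2, Col4a1, Col4a2, Col6a1, Col15a1 and Col18a1, with Col8a1 in aorta, Col4a4 and Col4a5 in kidney and Col14a1 in liver), and up to 2 pathway genes per list and comparison. Some genes of the fixed set passed in no comparison of a tissue on their brightest probe set in the main fit, and those values are left out above. They are Col5a2, Col4a1, Col4a2 and Col6a1 in heart, Col1a2, Col6a1, Col15a1 and Col18a1 in kidney, and Col5a2, Col15a1 and Col18a1 in liver. Kidney Col18a1 did pass as lower in BPH than in BPL with the pseudocount of 16 (-0.32, adjusted p = 0.0399) and the filter (-0.36, adjusted p = 0.0272). It also passed there with centring (-0.39, adjusted p = 0.0335) and the mean of its probe sets (-0.25, adjusted p = 0.0292). Other collagen genes named, such as Col5a1, Col6a2, Col11a1 and Col12a1 in aorta and Col9a3 in kidney, were chosen after their values were seen.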

Additional observations from a re-analysis of the deposited data

Results flagged for a closer look

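Of 198 sets of arrays of 1 strain, tissue and named gene, 10 held an array far from the others, where chance gives about 1 in 20. In aorta these were Col6a1 on BPL array 29 (log2 13.07, against 12.56 to 12.82 on the other arrays), Col6a2 on the same array (10.84 against 10.42 to 10.57) and Col15a1 on BPH array 2 (10.05 against 9.50 to 9.72). In heart they were Col1a2 on BPN array 2 (9.10 against at most 8.22) and Col6a6 on BPH array 1 (4.29 against 4.59 to 4.70). In kidney they were Col5a2 on BPL array 1 (5.85 against 6.13 to 6.17), Col4a1 on BPN array 2 (9.96 against 10.08 to 10.12), Col4a5 on BPN array 1 (8.77 against 8.22 to 8.36) and Col27a1 on BPL array 2 (7.46 against 7.21 to 7.25). In liver Col4a4 stood at 3.78 on BPN array 5, against 3.05 to 3.15 on the others.

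The change against BPN differed between aorta and heart, by the joint limma test, in BPH for Col6a6 (-2.22 ± 0.17), Col6a5 (-1.38 ± 0.21), Col19a1 (0.92 ± 0.19), Col8a2 (0.86 ± 0.19), Col23a1 (-0.59 ± 0.16) and Col16a1 (-0.47 ± 0.15). In BPL it differed for Col6a6 (-2.33 ± 0.17), Col6a5 (-1.28 ± 0.21), Col16a1 (-0.88 ± 0.15), Col18a1 (-0.85 ± 0.20), Col8a1 (-0.71 ± 0.18, on its second probe set), Col12a1 (-0.69 ± 0.19), Col19a1 (-0.66 ± 0.19), Col27a1 (0.62 ± 0.19) and Col6a2 (-0.45 ± 0.11). These values are log2 differences in aorta minus those in heart, ± standard error, and the 2 tissues were amplified by different protocols. In heart minus kidney, the change differed for Col6a6 (-1.92 ± 0.18 in BPH and -1.75 ± 0.19 in BPL) and for Col8a1 (0.76 ± 0.19 in BPH).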

How the results depend on the processing

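The named values were recomputed under the other settings and with each array left out, 4545 values in all. Of these, 4350 kept their side of the threshold, 122 lost the call, 73 gained one and 0 called values reversed, while 81 values that were not called changed sign. The counts of collagen genes called in aorta stayed within 1.5 times of those reported under every setting. In heart, BPH against BPN gave 1 gene in the joint fit instead of 2, and BPL against BPN gave 5 with the pseudocount of 16, 6 with the filter and 6 with the mean of probe sets instead of 3. In kidney, BPL against BPN gave 2 in the joint fit instead of 5, and BPH against BPL gave 7 with the mean of probe sets and 2 in the joint fit instead of 4. In liver, BPH against BPN gave 1 with the filter instead of 2, and BPH against BPL gave 2 with centring and 2 in the joint fit instead of 1. Leaving out 1 array gave, for BPH against BPN, BPL against BPN and BPH against BPL in turn, 8 to 11, 12 to 17 and 11 to 13 genes in aorta, 1 to 2, 2 to 5 and 3 to 4 in heart, 4 to 4, 4 to 6 and 1 to 5 in kidney, and 2 to 2, 2 to 6 and 1 to 3 in liver. Array numbers are shared between strains in heart, kidney and liver. Of the pairs of the same number, 4 of 15, 1 of 13 and 3 of 15 deviated together above a correlation of 0.1. The closest array of another strain had the same number for 2 of 15 heart, 1 of 14 kidney and 6 of 15 liver arrays. With a replicate block, BPH against BPL gave 2 genes in kidney and 2 in liver, the other counts staying within 1.5 times. In aorta too few array numbers are shared for a paired fit. The cause of these shifts was not tested. With no detection calls, dim genes have no fold.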
